A study of Rattus norvegicus with 14 samples.

Results

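Genes of the NF-κB pathway were followed in rat intestinal epithelial cells: the feedback inhibitors Nfkbia and Tnfaip3, the subunits Nfkb1, Nfkb2, Rela and Relb, and the target gene Icam1. They were picked by gene symbol in the array annotation, which gave 1 probe set for each of the 7 genes, 7 of the 31099 probe sets on the array, and all 7 were among the 17515 probe sets tested, which held 9840 named genes. The study treated IEC-6 cells, a line derived from rat small intestinal crypt, with nonsteroidal anti-inflammatory drugs that either slow (indomethacin, NS-398) or do not slow (SC-560) the migration of such cells. RNA was measured on 14 one-colour Affymetrix arrays after 2 rounds of amplification. Cells were kept for 72 h with the solvent DMSO alone (4 arrays), with 100 µM indomethacin (2 arrays), with 100 µM NS-398 (4 arrays) or with 1 µM SC-560 (4 arrays). Indomethacin blocks both cyclooxygenases, NS-398 prefers cyclooxygenase-2 and SC-560 prefers cyclooxygenase-1. Array labels carry a digit with or without the suffix b, and the 6 arrays without the suffix (DMSO, NS-398 and SC-560) and the 8 with it (all 4 treatments) are treated here as separate label sets with 2 arrays per treatment. What the suffix stands for is not given in the sources used here. All groups are the same single line in culture, material was pooled before hybridisation and several arrays were run per biological sample, so the p-values below reflect how far arrays differ, which can be technical, and not independent cultures.

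In resting cells NF-κB dimers are held in the cytoplasm by inhibitory proteins, of which the product of Nfkbia, IκBα, is the best known. Signals from receptors such as those for TNF or interleukin-1 activate the IκB kinase complex, the inhibitor is degraded, and the dimers enter the nucleus and induce chemokines, adhesion molecules and survival genes. Nfkbia and Tnfaip3, which encodes the ubiquitin-editing enzyme A20, are themselves induced by NF-κB and close the loop, and in intestinal epithelium A20 is known for limiting inflammatory signalling and cell death. The Rela and Nfkb1 products (p65 and p50) form the classical dimer, whereas the Relb and Nfkb2 products (RelB and p52) form the dimer of the alternative pathway.

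The windows before the start sites are shown for the 3 members with a called change that the RefSeq promoter table holds (assembly GRCr8). Their letters place the motif matches beside the values that follow. Icam1 is marked only by the motif that was searched after the windows had been seen. Each line gives the 250 bases before the start site on the gene's own strand, and capitals mark every match to either of the motifs named below.
Nfkbia, chr6:78597073-78597322, minus strand: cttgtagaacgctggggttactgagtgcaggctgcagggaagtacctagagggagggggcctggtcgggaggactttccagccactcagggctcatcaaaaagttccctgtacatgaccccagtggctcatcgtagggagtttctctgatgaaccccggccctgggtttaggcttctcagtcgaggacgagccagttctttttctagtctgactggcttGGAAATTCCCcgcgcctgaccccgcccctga
Tnfaip3, chr1:15543980-15544229, minus strand: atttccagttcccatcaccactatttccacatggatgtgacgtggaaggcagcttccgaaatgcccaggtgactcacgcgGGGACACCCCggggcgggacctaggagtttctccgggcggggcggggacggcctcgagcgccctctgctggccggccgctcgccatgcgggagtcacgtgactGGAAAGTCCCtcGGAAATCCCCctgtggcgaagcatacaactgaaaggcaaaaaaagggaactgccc
Icam1, chr8:27829595-27829844, plus strand: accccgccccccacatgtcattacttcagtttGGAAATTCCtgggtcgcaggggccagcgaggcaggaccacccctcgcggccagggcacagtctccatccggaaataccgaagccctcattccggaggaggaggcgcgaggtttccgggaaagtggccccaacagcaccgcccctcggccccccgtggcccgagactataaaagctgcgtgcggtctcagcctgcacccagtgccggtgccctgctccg

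Both strands of the table's windows, from 250 bases before to 50 bases after the start site, were searched for the κB consensus (10 letters) and, after the windows had been seen, for GGAANTTCC, which overlaps it. The κB consensus was present in 4 of the 6 member windows and in 7.51% of all 33469 windows. In Nfkbia it lay at -31 to -22 from the start site. The Tnfaip3 window held 3 matches, at -170 to -161, at -67 to -58 and at -55 to -46. In Nfkb1 the match began just past the start site, at 4 to 13, and in Nfkb2 it lay at -20 to -11. GGAANTTCC was present in 3 of the 6 member windows and in 0.872% of all windows: in Icam1 at -218 to -210, and in Nfkbia at -31 to -23 and Nfkb1 at 5 to 13 inside the κB matches. Because it was chosen after the windows had been seen, its count there cannot be weighed against that share. The Icam1 window held no match to the κB consensus. Rela held neither in this window. Relb was not analysed here for sequence. A match describes letters only.

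Signals are linear intensities that the authors scaled to a common target on each array, and changes are differences of log2(signal + 50) between the means of 2 arrays, ± the standard error of a limma fit to all 14 arrays. A probe set counts as called at a Benjamini-Hochberg adjusted p under 0.05 over all 17515 probe sets tested. The median signal of an array was 97.8 to 118, and 49.7% to 52.4% of its probe sets were at 100 or above. The 3'/5' signal ratio of beta-actin was 1.5 to 1.64 on the arrays without suffix and 1.22 to 1.34 on those with suffix b, and its part in the results was not tested. Of 10 epithelial markers, Krt8 and Cdh1 were at 100 or more on all 14 arrays, 4 (Krt18, Epcam, Cldn3 and Cldn4) were under 100 on every array, and others differed between the label sets in both directions. Cdx2 was at 55.0 to 124 on the arrays without suffix against 3072 to 5314 on those with it, and Krt19 at 44.8 to 136 against 345 to 766, whereas Cdh1 was at 7680 to 8412 against 2637 to 3671 and Ocln at 94.2 to 206 against 16.7 to 47.6. Of 13 fibroblast and smooth muscle markers, 8 were at 100 or more on every array. Because the label sets differ in this way, each drug was compared with DMSO within its own set. In RNA from whole cultures, a change in the cells that express a gene and a change in RNA per cell cannot be told apart.

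The feedback inhibitors moved in opposite directions under the pair of drugs given at 100 µM. Nfkbia was lower with indomethacin and higher with NS-398 than with DMSO. With indomethacin its signal was 2380 and 2665, against 3320 and 3925 in the DMSO arrays of set b. With NS-398 it was 5921 and 5815 in set b, and 7151 and 7553 in the set without suffix, where the DMSO arrays read 4630 and 4402. With SC-560 at 1 µM the arrays read 2982 and 3657 in set b and 4238 and 5418 in the other set. The indomethacin arrays were thus the lowest of all 14, the 4 NS-398 arrays were above all other 10, whose highest signal was 5418, and the SC-560 arrays overlapped with DMSO in both sets.

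Nfkbia fell with indomethacin by 0.51 ± 0.11 on the log2 scale, to 0.702 of the DMSO level (limma, adjusted p = 0.00964). It rose with NS-398 by 0.69 ± 0.11 in set b, which is 1.62-fold (limma, adjusted p = 0.000472), and by 0.70 ± 0.11 in the set without suffix, again 1.62-fold (limma, adjusted p = 0.000594). The difference between the NS-398 effects of the label sets was -0.00, with a 95% confidence interval from -0.33 to 0.32. The NS-398 calls held in all 12 alternative analyses of each set. The indomethacin call was lost without DMSO array 2b (change -0.39, limma adjusted p = 0.0997), without indomethacin array 1b (-0.43, 0.0929) and without the intensity trend of the limma fit (adjusted p = 0.0721), with the direction kept.

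**Figure D1:**
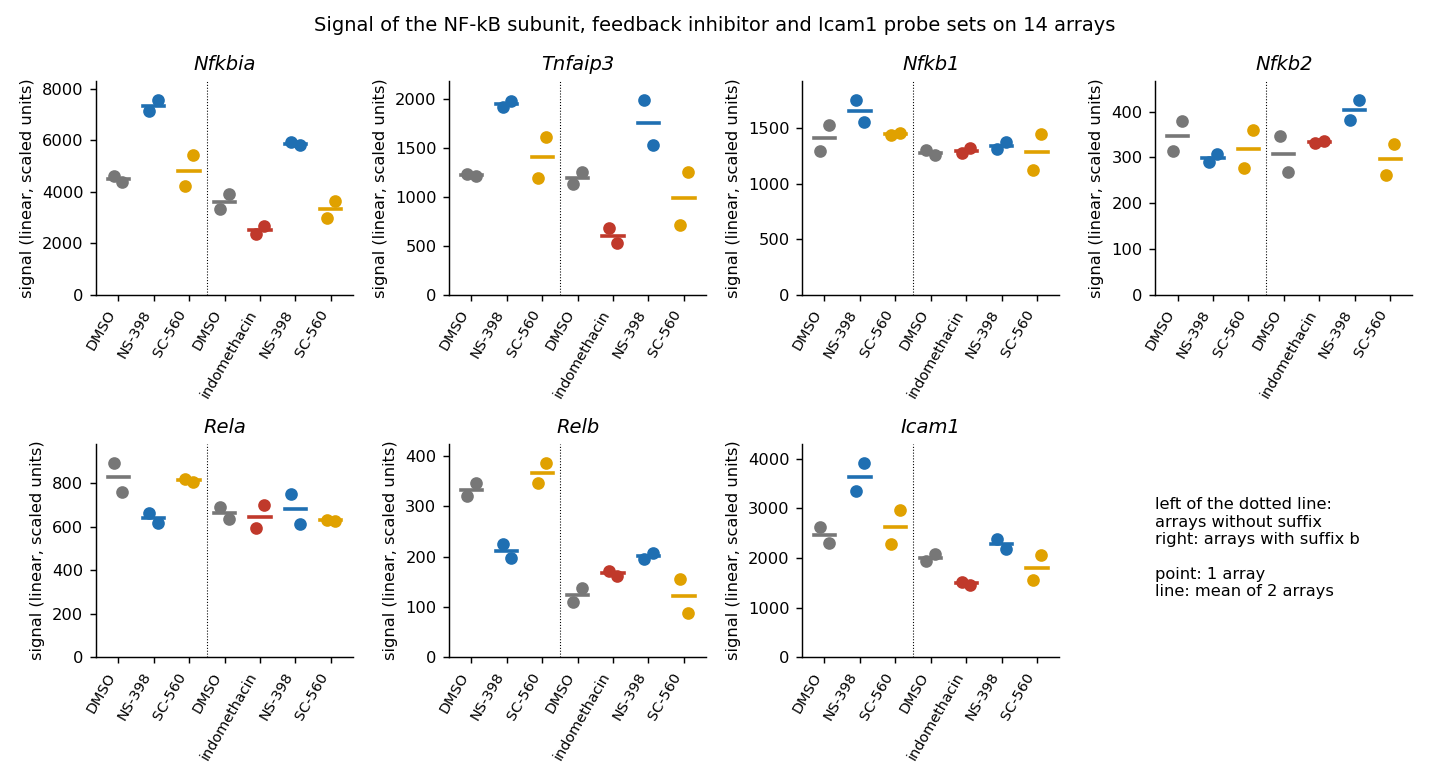
Linear signal (scaled units) of each member's probe set on each of the 14 arrays; points are arrays, lines are means of 2 arrays, and the dotted line separates the arrays without suffix (left) from those with suffix b (right). For Nfkbia, Tnfaip3 and Icam1 the indomethacin arrays are the lowest of all, whereas Nfkb1 spans 1127 to 1749 and Rela 595 to 893 with no such order, and Relb differs by label set.

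Tnfaip3 showed the same opposition, with the larger fall. Its signal was 681 and 523 with indomethacin against 1133 and 1250 in the DMSO arrays of set b. With NS-398 it was 1981 and 1525 in set b, and in the set without suffix 1915 and 1972 against 1236 and 1212 with DMSO. With SC-560 it was 713 and 1254 in set b and 1193 and 1607 in the other. Both indomethacin arrays lay below all other arrays, and every NS-398 array lay above the DMSO arrays of both sets, although NS-398 array 2b was below the higher SC-560 array.

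Tnfaip3 fell with indomethacin by 0.94 ± 0.19, to 0.522 of the DMSO level (limma, adjusted p = 0.00764). With NS-398 it rose by 0.65 ± 0.19 in the set without suffix (1.56-fold, limma adjusted p = 0.0391). In set b the NS-398 change was 0.53 ± 0.19 and did not pass (limma, adjusted p = 0.0797); the difference between the sets was -0.12 with an interval from -0.70 to 0.46. The indomethacin call was lost without DMSO array 2b (change -0.87, limma adjusted p = 0.0545), without indomethacin array 2b (-0.76, 0.0960) and without the intensity trend (adjusted p = 0.0613). The NS-398 call in the set without suffix held in 5 of 12 alternatives and was lost whichever of its 4 arrays was left out: limma adjusted p = 0.131 without DMSO array 1, 0.155 without DMSO array 2, 0.130 without NS-398 array 1 and 0.173 without NS-398 array 2.

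The subunits of the classical dimer were not called in any comparison. Nfkb1, the gene of p105 and p50, ranged from 1127 to 1749 over the 14 arrays, a ratio of 1.55. It read 1302 and 1256 with DMSO, 1273 and 1322 with indomethacin and 1310 and 1372 with NS-398 in set b. In the set without suffix it read 1295 and 1528 with DMSO and 1749 and 1557 with NS-398, so that the NS-398 arrays lay just above the DMSO arrays. Its change was 0.02 ± 0.11 with indomethacin (95% interval from -0.20 to 0.24), 0.07 ± 0.11 with NS-398 in set b and 0.22 ± 0.11 in the other set (limma, adjusted p = 0.190). Changes of the size seen for Nfkbia under either drug lie outside the set b intervals of Nfkb1.

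Rela, the gene of the transactivating subunit p65, ranged from 595 to 893 over the 14 arrays. With indomethacin it read 595 and 699 against 693 and 636 with DMSO, a change of -0.04 ± 0.11. With NS-398 it read 751 and 613 in set b, a change of 0.03 ± 0.11, and 664 and 619 in the set without suffix against 893 and 763 with DMSO. The latter arrays did not overlap, and the change of -0.34 ± 0.11 did not pass (limma, adjusted p = 0.0607).

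Nfkb2, the gene of p100 and p52, read 347 and 268 with DMSO, 331 and 335 with indomethacin and 382 and 424 with NS-398 in set b. The NS-398 arrays there were the highest of all 14, yet the change of 0.35 ± 0.15 did not pass (limma, adjusted p = 0.142). In the set without suffix the signals were 314 and 380 with DMSO and 290 and 308 with NS-398, a change of -0.18 ± 0.15. The difference between the sets, 0.53 ± 0.21, did not pass either (limma, adjusted p = 0.163).

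Relb, whose product pairs with p52, was the member that depended most on the label set. In the set without suffix it read 320 and 346 with DMSO, 347 and 386 with SC-560, and 225 and 198 with NS-398. In set b it read 110 and 138 with DMSO, 156 and 87.7 with SC-560, 172 and 162 with indomethacin, and 196 and 208 with NS-398. The NS-398 arrays of both sets thus lay between 196 and 225, below DMSO in one set and above it in the other, and signals near 100 are close to the filter on low values.

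Relb fell with NS-398 by 0.55 ± 0.17 in the set without suffix (limma, adjusted p = 0.0493) and rose by 0.54 ± 0.17 in set b (limma, adjusted p = 0.0467). The NS-398 effects of the sets differed by 1.09 ± 0.25 (95% interval from 0.57 to 1.62; limma, adjusted p = 0.0145). Both drug calls were close to the threshold: each held in only 2 of 12 alternatives, and leaving out any array of the comparison ended them (limma adjusted p from 0.0669 to 0.275 in set b and from 0.106 to 0.241 in the other). The difference between the sets held in 12 of 15 alternatives and was lost without DMSO array 1b (limma adjusted p = 0.0708), DMSO array 2 (0.0573) or NS-398 array 2 (0.0668). The change with indomethacin was 0.33 ± 0.17 and did not pass (limma, adjusted p = 0.299). Cdx2, Cdh1 and the beta-actin ratio also differed between the label sets, as given above, and their part in this difference was not tested.

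Icam1, an adhesion molecule for leukocytes and a classical NF-κB target, followed the inhibitors with smaller changes. Its signal was 1526 and 1452 with indomethacin, 1945 and 2076 with DMSO and 2390 and 2172 with NS-398 in set b. In the set without suffix it was 2618 and 2297 with DMSO and 3343 and 3908 with NS-398. With SC-560 it was 1551 and 2056 in set b and 2273 and 2962 in the other. The indomethacin arrays were the lowest of all 14, and the NS-398 arrays were above the DMSO arrays of their own set each time.

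Icam1 rose with NS-398 by 0.55 ± 0.13 in the set without suffix, which is 1.46-fold (limma, adjusted p = 0.00997), a call that was lost without DMSO array 2 (adjusted p = 0.105), without NS-398 array 2 (0.126) and without the intensity trend (0.0585). In set b the change with NS-398 was 0.18 ± 0.13 (limma, adjusted p = 0.405), and the difference between the sets, -0.37 ± 0.18, did not pass (limma, adjusted p = 0.248). With indomethacin the change was -0.42 ± 0.13 and missed the threshold (limma, adjusted p = 0.0574). It passed in only 1 of 12 alternatives, the fit to set b alone (limma, adjusted p = 0.0429). In the additive model the limma adjusted p was 0.218, and without the intensity trend 0.171.

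**Figure D2:**
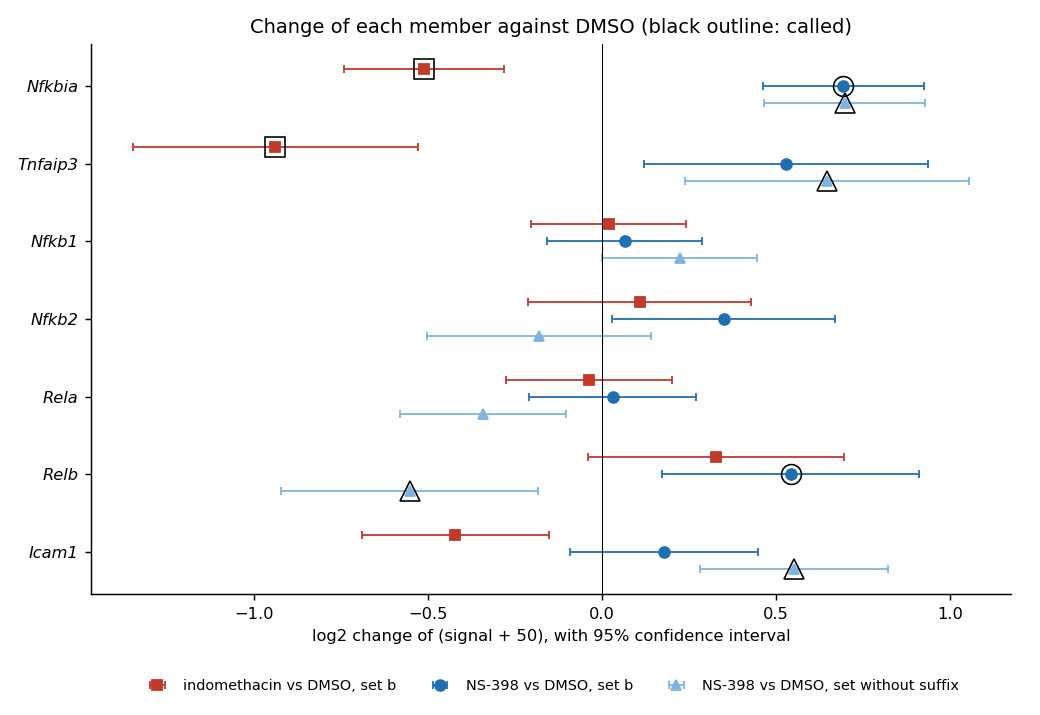
Change of each member against DMSO on the log2(signal + 50) scale with its 95% confidence interval, for indomethacin in set b (squares) and NS-398 in set b (circles) and in the set without suffix (triangles); a black outline marks an adjusted p under 0.05. Nfkbia, Tnfaip3 and Icam1 have the indomethacin change below 0 and both NS-398 changes above 0, the Nfkb1, Nfkb2 and Rela symbols carry no outline, and Relb has NS-398 changes of 0.54 and -0.55.

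Over the 7 members, indomethacin in set b gave 0 calls higher and 2 lower, where 7.1% of all probe sets tested were called, 3.43% higher and 3.67% lower. NS-398 in set b gave 2 higher (Nfkbia, Relb) and 0 lower against 14.7% called, 7.71% higher and 6.99% lower. NS-398 in the set without suffix gave 3 higher (Nfkbia, Tnfaip3, Icam1) and 1 lower (Relb) against 11.9% called, 6.13% higher and 5.81% lower. The median change over the members was -0.04 with indomethacin, 0.35 with NS-398 in set b and 0.22 in the other set, and the median over all probe sets was -0.00, -0.01 and -0.00. At an unadjusted p under 0.05 the counts were 0 higher and 3 lower, 4 higher and 0 lower, and 3 higher and 2 lower. Of all 17515 probe sets tested, 3760, 4834 and 4619 were under 0.05 in the same order, in either direction. The effect of NS-398 differed between the sets for 1 member, Relb, against 6.09% of all probe sets.

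Indomethacin and NS-398 share dose, time and DMSO arrays in set b, so their changes against DMSO are not independent, and the drugs were also compared with each other. This was the only pair of drugs at a matched dose. Nfkbia differed by -1.20 ± 0.11 with indomethacin relative to NS-398, at 0.434 of its level there (limma, adjusted p = 5.54e-06), and ranked 19 among all probe sets by p. Tnfaip3 was lower by a difference of -1.47 ± 0.19, 0.362 of the NS-398 level (limma, adjusted p = 0.000165). Icam1 differed by -0.60 ± 0.13, 0.661 of the NS-398 level (limma, adjusted p = 0.00713). In these 3 genes both indomethacin arrays were below both NS-398 arrays. The same was true of Nfkb2 (331 and 335 against 382 and 424) and Relb (172 and 162 against 196 and 208), which were not called. How many of all probe sets separate in this way was not counted. The Nfkbia and Tnfaip3 calls held in all 12 alternatives. The Icam1 call was lost without NS-398 array 1b (limma adjusted p = 0.0624), without indomethacin array 2b (0.0586) and without the intensity trend (0.0516).

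Thus 3 of the 7 members were called lower and 0 higher with indomethacin than with NS-398, where 9.99% of all probe sets were called, 4.11% higher and 5.87% lower. At an unadjusted p under 0.05 limma gave the same counts, 0 higher and 3 lower, where 4178 of all 17515 probe sets passed in either direction. The subunits did not pass: the difference was -0.05 for Nfkb1 (95% interval from -0.27 to 0.18), -0.24 for Nfkb2 (from -0.56 to 0.08), -0.07 for Rela (from -0.31 to 0.17) and -0.21 for Relb (from -0.58 to 0.15).

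SC-560, given at 1 µM and so not set against the other drugs, called 0 of the 7 members in either set with limma, and 0 of 7 also at an unadjusted p under 0.05. Over all probe sets it called 0.0228% in set b (4 probe sets) and 0.0114% in the set without suffix (2 probe sets), with 1781 and 1134 at an unadjusted p under 0.05. Nfkbia changed by -0.13 ± 0.11 in set b and 0.09 ± 0.11 in the other, and the widest member value was -0.31 ± 0.19 for Tnfaip3 in set b (limma, adjusted p = 0.616), whose SC-560 arrays read 713 and 1254.

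The mRNA levels of the other parts of the pathway were summarised over lists of genes, each represented by its brightest probe set. The shares to set their counts against are those over all probe sets tested: 7.1% called with indomethacin, 14.7% with NS-398 in set b and 11.9% in the set without suffix. Of 19 ligands and receptors 7 were tested, and 1 was called with indomethacin, the TNF receptor Tnfrsf1a, which rose by 0.24 ± 0.06 (limma, adjusted p = 0.0308). With NS-398 in set b Tnfrsf1a (0.25 ± 0.06) and the lymphotoxin receptor Ltbr (0.28 ± 0.08) rose and the cytokine Il18 fell by 0.37 ± 0.10 (limma, adjusted p = 0.0150, 0.0333 and 0.0160). The Tnfrsf1a change in the set without suffix was -0.15 ± 0.06 and did not pass (limma, adjusted p = 0.131), and its NS-398 effects differed between the sets by 0.40 ± 0.09 (limma, adjusted p = 0.0141); in a model with 1 effect for both sets the change was 0.05 (adjusted p = 0.731). That difference was lost without DMSO array 1 (limma adjusted p = 0.0537), DMSO array 1b (0.0507) or NS-398 array 2 (0.0697) and without the intensity trend (0.0817). In the set without suffix Il18 fell by 0.72 ± 0.10 and the interleukin-1 receptor Il1r1 by 0.69 ± 0.12 (limma, adjusted p = 0.000156 and 0.00140). The median change of the 7 was -0.02, -0.03 and -0.17 in the same order of comparisons. The Il18 and Il1r1 calls of the set without suffix held in all 12 alternatives. Leaving out any array of the comparison ended the calls of Tnfrsf1a with indomethacin (adjusted p from 0.106 to 0.160) and of Ltbr (from 0.0717 to 0.195). The Tnfrsf1a call with NS-398 was lost without DMSO array 1b, DMSO array 2b or NS-398 array 1b (0.0783, 0.0750 and 0.0866), and the Il18 call in set b without DMSO array 1b or NS-398 array 1b (0.121 and 0.0997).

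Of 30 adaptors and kinases 26 were tested, with 1 higher and 2 lower with indomethacin, 1 higher and 1 lower with NS-398 in set b, and 0 higher and 2 lower in the set without suffix. The kinases of the IκB kinase complex, Chuk and Ikbkb, were not called in these comparisons, with changes between -0.18 and 0.18. Card10, a scaffold that links receptors to the kinase complex, was lower in all 3, by -0.73 ± 0.14, -0.53 ± 0.14 and -0.56 ± 0.14 (limma, adjusted p = 0.00517, 0.0182 and 0.0183). Tab3, a partner of the kinase TAK1, rose by 0.56 ± 0.14 with indomethacin and by 0.67 ± 0.14 with NS-398 in set b (limma, adjusted p = 0.0244 and 0.00415), and its change was 0.22 ± 0.14 in the set without suffix. Irak1, a kinase of interleukin-1 signalling, fell with indomethacin by 0.34 ± 0.08 (limma, adjusted p = 0.0135), and the adaptor Traf5 fell with NS-398 in the set without suffix by 0.42 ± 0.10 (limma, adjusted p = 0.00915). Single arrays decided many of these calls. Those of Tab3 with indomethacin and of Card10 in the set without suffix were lost whichever array was left out (adjusted p from 0.0819 to 0.143 and from 0.0662 to 0.112). In set b the Card10 calls were lost without DMSO array 1b (0.107 with indomethacin, 0.249 with NS-398, where the change moved to -0.33), and without indomethacin array 2b (0.0605) or NS-398 array 2b (0.127). The Tab3 call with NS-398 was lost without NS-398 array 1b (0.0550), that of Irak1 without DMSO array 1b (0.152) or indomethacin array 2b (0.154), and that of Traf5 without DMSO array 1 (0.0607), DMSO array 2 (0.0535) or NS-398 array 2 (0.0641).

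Of 9 other Rel and IκB family genes 6 were tested, and the only one called was Nfkbiz, the gene of the nuclear protein IκBζ, which works with p50 on a subset of target genes. Its signal was 453 and 521 with indomethacin, 879 and 921 with DMSO and 1331 and 1107 with NS-398 in set b, and 1425 and 1399 with DMSO and 1719 and 1789 with NS-398 in the set without suffix. The indomethacin arrays were again below, and the NS-398 arrays above, the DMSO arrays of their set. Nfkbiz fell with indomethacin by 0.83 ± 0.11 (limma, adjusted p = 0.000266) and rose with NS-398 in set b by 0.41 ± 0.11 (limma, adjusted p = 0.0180), and the change in the other set was 0.30 ± 0.11 (limma, adjusted p = 0.0857). Between the drugs it differed by -1.24 ± 0.11 (limma, adjusted p = 4.58e-06), a call that held in all 12 alternatives, as did the fall with indomethacin. The rise in set b was lost without DMSO array 1b (adjusted p = 0.119), DMSO array 2b (0.0557) or NS-398 array 1b (0.178).

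Among 17 other negative regulators 12 were tested, and limma called 0 with indomethacin, with 0 higher and 1 lower at an unadjusted p under 0.05. Of all 17515 probe sets tested, 3760 were under 0.05 there in either direction. With NS-398 in set b the mRNA-decay factor Zfp36 rose by 0.61 ± 0.09 (limma, adjusted p = 0.000426), from 1528 and 1703 to 2496 and 2490, and Pdlim2, a ligase that promotes degradation of nuclear p65, fell by 0.39 ± 0.09 (limma, adjusted p = 0.00598). In the set without suffix Pdlim2 fell by 0.41 ± 0.09 (limma, adjusted p = 0.00549) and the A20-binding protein gene Tnip1 by 0.34 ± 0.08 (limma, adjusted p = 0.0137), and the change of Zfp36 was 0.25 ± 0.09 (limma, adjusted p = 0.101). Zfp36 and Pdlim2 differed between the drugs in set b, by -0.46 ± 0.09 and 0.39 ± 0.09 with indomethacin relative to NS-398 (limma, adjusted p = 0.00604 and 0.00937). The rise of Zfp36 in set b held in all 12 alternatives. The Pdlim2 falls were lost without DMSO array 1b (adjusted p = 0.0582) and without NS-398 array 1 (0.0771), and the Tnip1 fall without DMSO array 2 (0.158), NS-398 array 1 (0.0943) or NS-398 array 2 (0.0556). For Zfp36 the difference between the drugs was lost without indomethacin array 1b (change -0.40) and in the additive model (limma, adjusted p = 0.0911). That of Pdlim2 was lost without NS-398 array 1b (change 0.36) or indomethacin array 2b (0.31).

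Of 31 other target genes 20 were tested. With indomethacin 2 rose and 4 fell, where 3.43% of all probe sets rose and 3.67% fell. With NS-398 6 rose and 0 fell in set b, where 7.71% of all rose and 6.99% fell, and 8 rose and 0 fell in the set without suffix, where 6.13% rose and 5.81% fell. Only Sod2, Gadd45b and Ccnd1 were called in both sets, and the other genes that rose were called in a single set. The median change was -0.20, 0.19 and 0.29. At an unadjusted p under 0.05 limma also gave 0 lower with NS-398 in both sets, where 4834 and 4619 of all 17515 probe sets passed in either direction. Over the 12 alternatives the counts were 1 to 2 higher and 2 to 4 lower with indomethacin, 3 to 8 higher with NS-398 in set b (3 without DMSO array 1b) and 4 to 8 higher in the other set (4 without NS-398 array 2). Called lower with indomethacin were the chemokine genes Cxcl1, Cxcl2 and Ccl2 and the cyclooxygenase-2 gene Ptgs2, by -0.93, -1.0, -0.86 and -0.40. Called higher were Cxcl10 by 0.81 and the cyclin gene Ccnd1 by 0.71. The Cxcl1 and Ccl2 calls held in all 12 alternatives. Those of Cxcl2 and Ptgs2 (limma, adjusted p = 0.0123 and 0.0213) were lost in the additive model. Whether they held in each of the other alternatives is not given here.

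Ccl2, which attracts monocytes, read 263 and 281 with indomethacin, 577 and 495 with DMSO and 718 and 726 with NS-398 in set b. It fell with indomethacin by 0.86 ± 0.12 (limma, adjusted p = 0.000474). Its rise with NS-398 in set b, 0.40 ± 0.12 (limma, adjusted p = 0.0369), was lost without any one of the 4 arrays (adjusted p from 0.0553 to 0.240), and the change in the set without suffix was -0.08 ± 0.12. Cxcl1, which attracts neutrophils, fell with indomethacin by 0.93 ± 0.12 (limma, adjusted p = 0.000168), and its change with NS-398 was -0.15 ± 0.12 and 0.24 ± 0.12, neither called.

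Other targets showed other combinations. Ccnd1, which drives entry into the cell cycle, rose with both drugs: it read 6667 and 6052 with indomethacin, 3718 and 4032 with DMSO and 6481 and 7602 with NS-398 in set b. The rises were 0.71 ± 0.09 with indomethacin, 0.85 ± 0.09 with NS-398 in set b and 0.67 ± 0.09 in the other set (limma, adjusted p = 0.000114, 1.02e-05 and 0.000107), and the drugs differed by -0.14 ± 0.09, which did not pass (limma, adjusted p = 0.343). Gadd45b, a stress and survival gene, rose with NS-398 in both sets, by 0.57 ± 0.10 and 0.69 ± 0.10 (limma, adjusted p = 0.00134 and 0.000356), and its change with indomethacin was 0.03 ± 0.10. Like the inhibitors it was lower with indomethacin than with NS-398, by a difference of -0.54 ± 0.10 (limma, adjusted p = 0.00309), a call that held in all 12 alternatives. Cxcl10 read 293 and 232 with indomethacin against 95 and 165 with DMSO, a rise of 0.81 ± 0.20 (limma, adjusted p = 0.0221) that was lost without DMSO array 1b (change 0.53, adjusted p = 0.274), indomethacin array 1b (0.67, 0.168) or indomethacin array 2b (0.96, 0.0537).

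Between the drugs, 9 of the 20 tested targets were called lower and 1 higher with indomethacin than with NS-398, and the alternatives gave 6 to 9 lower (6 without indomethacin array 1b) and 0 to 1 higher; the shares of all probe sets are those given above. With SC-560 limma called 0 of the 71 list genes tested in either set, and 8 and 7 had an unadjusted p under 0.05. Of all 17515 probe sets tested, 1781 and 1134 were under 0.05. Of 9 leukocyte markers 8 had a probe set and 5 of these were under 100 on every array, among them the defining marker Ptprc which stayed at or below 32.8. The summed leukocyte level was 3434 to 3653 with DMSO, 4078 to 4415 with indomethacin and 3956 to 4128 with NS-398 in set b, and most of it was Cd14 (2871 to 4088 over all arrays), which is not restricted to leukocytes. The sum was above DMSO with both drugs. The summed epithelial level in set b was 12830 to 13402 with DMSO and 13025 to 13982 with NS-398. It was 14300 to 14317 with SC-560, also above DMSO, and 15872 to 15953 with indomethacin, highest where Nfkbia, Tnfaip3 and Icam1 were lowest. Most of it was Krt8 (4483 to 6893 on the set b arrays), Cdh1 (2637 to 3671) and Cdx2 (3072 to 5314). In the set without suffix the epithelial sum was 11559 to 11652 with DMSO, 10944 to 11381 with NS-398 and 11653 to 11865 with SC-560. The summed endothelial level in set b was 728.7 to 788.6 with DMSO and 735.5 to 736.2 with NS-398. With SC-560 that sum was 849.9 to 851.1, and with indomethacin 826.5 to 878.2. The summed fibroblast and smooth muscle level in set b was 91193 to 94526 with DMSO and 90969 to 94444 with indomethacin. It was 92013 to 96891 with NS-398 and 103639 to 106074 with SC-560. The part of any of these sums in the results was not tested.

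**Figure D3:**
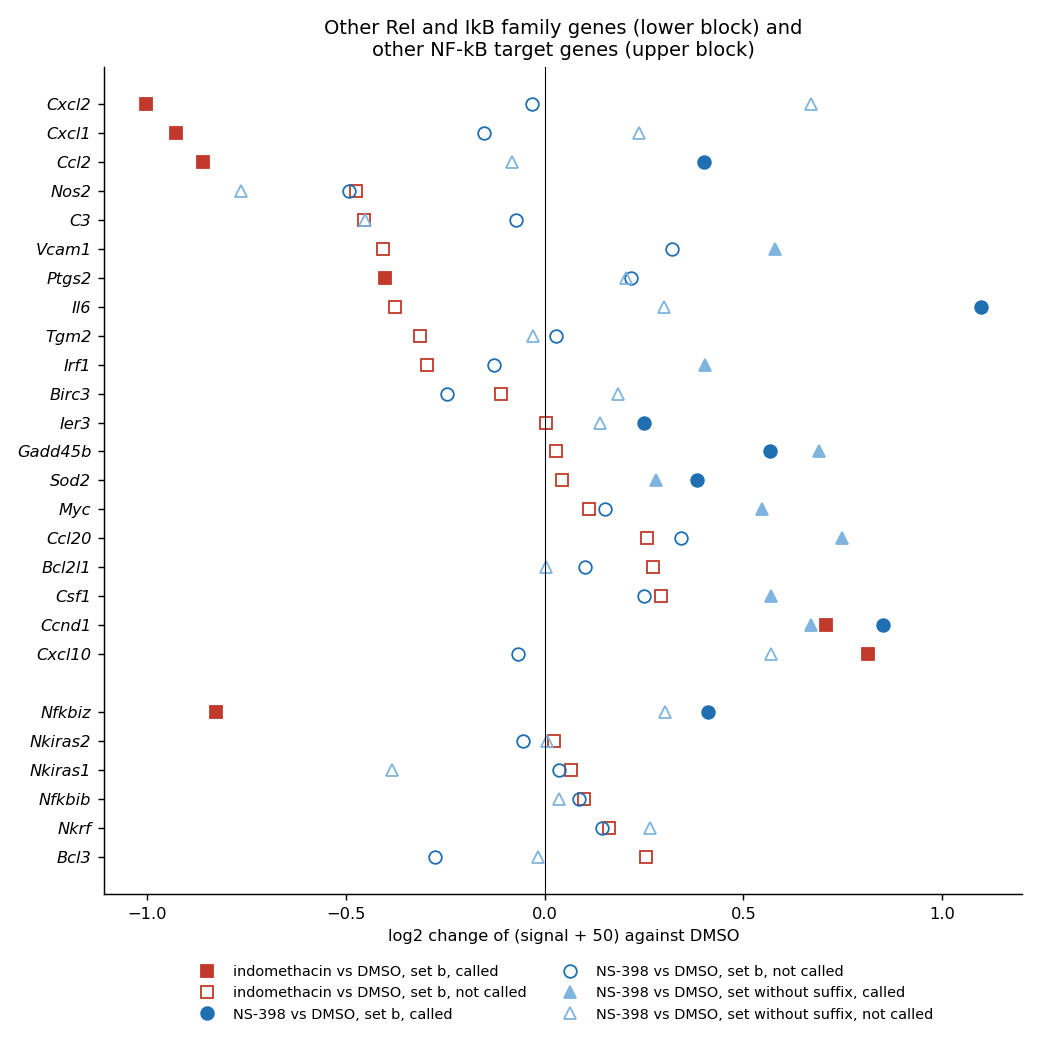
Change against DMSO on the log2(signal + 50) scale of the 6 tested other Rel and IκB family genes (lower block) and the 20 tested other target genes (upper block), for indomethacin in set b (squares) and NS-398 in set b (circles) and in the set without suffix (triangles); filled symbols have an adjusted p under 0.05. Cxcl1, Cxcl2, Ccl2, Ptgs2 and Nfkbiz are the filled squares left of 0, no filled NS-398 symbol lies left of 0, and Ccnd1 lies right of 0 in all 3 comparisons.

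The inhibitors and Icam1 also varied together from array to array. After the mean of each label set was subtracted, Pearson's r over the 14 arrays was 0.92 for Nfkbia and Tnfaip3, 0.91 for Nfkbia and Icam1 and 0.92 for Tnfaip3 and Icam1. These points share treatments and the array scaling, and whether arrays share RNA pools is not given in the sources used here, so r describes these arrays and carries no p. With the subunit genes Nfkbia had r of 0.47 (Nfkb1), 0.33 (Nfkb2), -0.25 (Rela) and -0.10 (Relb). The value for Relb pools label sets with opposite NS-398 changes of Relb, 0.54 in set b and -0.55 without suffix. Within the 7 pairs of arrays of one treatment and label set, the same array was the higher one for all 3 genes in 6. This was counted for these 3 genes only, so how often other genes do the same on these arrays is not known. One such pair was SC-560 in set b, at 2982 against 3657 for Nfkbia, 713 against 1254 for Tnfaip3 and 1551 against 2056 for Icam1. The exception was indomethacin, where Nfkbia was higher on array 2b and Tnfaip3 and Icam1 on array 1b.

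**Figure D4:**
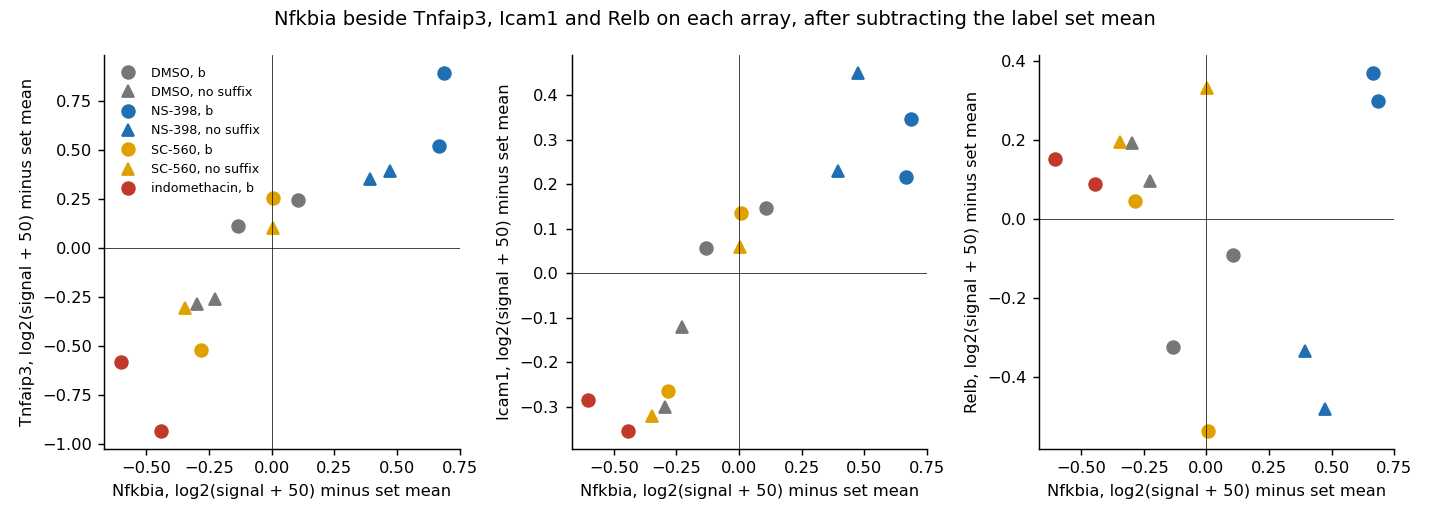
Tnfaip3, Icam1 and Relb against Nfkbia on each of the 14 arrays, as log2(signal + 50) minus the mean of the array's label set; circles are arrays with suffix b and triangles arrays without it. Tnfaip3 (r = 0.92) and Icam1 (r = 0.91) rise along Nfkbia from the indomethacin arrays at the lower left to the NS-398 arrays at the upper right. Relb (r = -0.10) does not: its NS-398 arrays lie above DMSO in set b and below DMSO in the set without suffix.

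On the same set-centred scale, the named genes outside the 7 that were most like Nfkbia over the 14 arrays were Nfil3 (r = 0.962), Ccne1 (0.943) and Tor1aip2 (0.936). Tnfaip3 was most like Slc6a8 (0.963), Ankrd10 (0.938) and Nfkbiz (0.926), and Icam1 most like Ccne1 (0.952), Cxcl2 (0.943) and Ripk2 (0.922). For the subunits the highest value was lower: 0.834 for Nfkb1 (with Plcb3), 0.862 for Nfkb2 (Sbno2), 0.899 for Rela (Gmfg) and 0.909 for Relb (Serpini1). Each is the highest value over all named genes tested and is a description.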

How the data were processed

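Deposited values are linear signal intensities for 31099 probe sets on each of 14 arrays. Per the labels, the authors scaled all probe sets of an array to a target signal of 500; which program turned probes into signals is not given in the sources used here. Groups and label sets were taken from the labels, and no columns of other samples were present (0). Names came from the platform annotation (20832 probe sets with 1 symbol, 436 with several and left unnamed, 9831 not listed), and symbols were brought up to date by gene ID in a RefSeq table of GRCr8 (20764 found). The 57 control probe sets were left out, and testing required a signal of 100 or more on 2 or more arrays.

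log2(signal + 50) was fitted with limma 3.58.1 under R 4.3.3, with 1 mean for each treatment in each label set, all 14 arrays sharing the spread, and eBayes with an intensity trend. Changes are thus on the log2(signal + 50) scale, which understates those of dim probe sets. Adjusted p-values are Benjamini-Hochberg values over all probe sets tested. The procedure was run on simulated data for indomethacin in set b and for NS-398 in the set without suffix. Noise was drawn independently for each array, so this run cannot show how calls behave where arrays share material. The number of arrays limits the precision. SDs and intervals (95%) are between arrays.

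The members, gene lists and tests were chosen with earlier results of these data known. For genes with several probe sets the brightest by mean log2 signal stood for the gene. All members were named. So were, for each list and comparison of a 100 µM drug with DMSO, the called genes ranked first and second by adjusted p per direction. For each member the 3 genes of highest r were also named. Cxcl2, Ptgs2, Sod2, Chuk and Ikbkb were named after their values were seen. Promoters are shown for members called against DMSO, as far as the table holds them. Alternatives were the pseudocount (16 and 200), no filter, quantile normalization, no trend, a replicate block, an additive model, each label set alone and leaving out each array. Array labels do not pair the arrays: deviations of same-labelled arrays from their group means correlated between -0.08 and 0.06 over 9 pairs.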

Additional observations from a re-analysis of the deposited data

Results flagged for a closer look

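Over the 4 arrays of a treatment in both label sets, the lowest or highest array was checked for each member, 21 groups in all, of which chance would mark about 1 in 20. In 2 groups one array stood apart from the other three. The Tnfaip3 signal on NS-398 array 2b was 1525 against 1915 to 1981 on the other arrays, a gap of 0.870 of the whole range on the log2 scale, past Dixon's critical value. The Nfkb1 signal on SC-560 array 1b was 1127 against 1435 to 1460, a gap of 0.933 of the range.

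The effect of NS-398 on Relb differed between the label sets by 1.09 on the log2 scale (limma interaction, Benjamini-Hochberg adjusted p = 0.0145), from a fall of 0.55 without suffix to a rise of 0.54 with suffix b. The DMSO signals were 320 and 346 without suffix and 110 and 138 with it, and the NS-398 arrays lay between 196 and 225 in both sets. The difference was lost without DMSO array 1b (adjusted p = 0.0708), DMSO array 2 (0.0573) or NS-398 array 2 (0.0668).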

How the results depend on the processing

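Calls of Nfkbia with NS-398 in each set, and of Nfkbia and Tnfaip3 between the drugs, held in all 12 alternatives. The member counts were 2 (indomethacin), 2 and 4 (NS-398 in set b and without suffix), 1 (difference of NS-398 effects), 3 (between drugs) and 0 (SC-560). Without the intensity trend the first 3 became 0, 1 and 1. NS-398 in set b gave 1 member with no filter, quantile normalization, the replicate block and set b alone; without suffix, no filter gave 2 and the replicate block 2. Leaving out each array gave 0 to 2, 1 to 1 and 1 to 2 members, 0 to 1 for the difference and 2 to 3 between drugs. The replicate block moved no count over all probe sets by more than 1.5 times; array labels did not pair the arrays. Relb with NS-398 in set b turned to -0.00529 (limma adjusted p = 0.992) in the additive model, which assumes 1 drug effect for both sets.

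Over all probe sets, indomethacin called 1243, and 572 in the additive model, 778 with no filter, 566 without the trend and 305 to 773 without each array. NS-398 called 2574 in set b (1151 to 1758 without each array) and 2091 without suffix (833 to 1113; 1393 without the trend). The difference of effects called 1066, and 699 with no filter, 512 without the trend and 504 to 860 without each array. Between drugs the count was 1749, and 954 in the additive model, 1057 without the trend and 789 to 1010 without each array. SC-560 called 4 in set b (0 additive, 8 quantile, 1 to 15 without each array) and 2 without suffix (0 additive, 2 to 6 without each array). The cause of these moves was not tested. Where leaving out an array leaves 1 in a cell, its spread is taken from the other cells. The same alternatives were applied to the other pathway genes as an addition chosen after seeing the data. Where only arrays are listed above for these genes, other settings ended some of the calls too. The additive model did so for Irak1 and Tab3 with indomethacin (limma, adjusted p = 0.153 and 0.132) and Tnip1 without suffix (0.057). Dropping the trend did so for Irak1 (0.072) and for Nfkbiz with NS-398 in set b (0.0568). Dropping the filter did so for Cxcl10 with indomethacin (0.0652).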
